A study of Mus musculus with 15 samples.

Results

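The secondary palate of wild-type (WT) mice was compared between embryonic day (E) 16.5 and E14.5. The comparison used the 3 libraries labelled E16.5 and the 3 labelled E14.5, 6 of the 15 libraries of a series that also sampled E13.5, E15.5 and P0, and it covered all genes of the deposited count table. Each library held RNA from the dissected palates of 3 embryos pooled together, and replicate error here is that among such pools. No allele, transgene or treatment was named for any group. The labels give no strain and no sex. All values are for bulk tissue, in which more cells of a type and more RNA per cell cannot be told apart.

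In the mouse, the palatal shelves grow down beside the tongue, rise above it and meet in the midline, where the epithelial seam between them is lost. Mesenchyme of neural crest origin then lays down the bone of the hard palate, while muscle forms in the soft palate. The oral surface becomes a stratified squamous epithelium, and the nasal surface becomes a respiratory epithelium with ciliated cells and glands. E14.5 lies around the meeting of the shelves and E16.5 lies after it.

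Levels are given in CPM, counts scaled to a common library size and corrected by the trimmed mean of M values, in the order of the libraries numbered 1, 2 and 3. Fold changes are log2 values of E16.5 over E14.5 with their standard errors (SE). A gene was called at an adjusted p under 0.05 in edgeR's quasi-likelihood test with Benjamini-Hochberg adjustment over 22151 tested genes, and every adjusted p below comes from that test. Groups of genes are fixed lists, each described by the members called and by the median over its tested members. Their counts stand against the share called over all tested genes, 23.4% higher and 22.8% lower.

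Of the 22151 genes, 10231 were called (46.2%), 5187 higher at E16.5 (23.4%) and 5044 lower (22.8%), and the median over all genes was -0.01. The rises were larger than the falls: 3719 genes were called at least 2-fold higher (16.8%) and 2176 at least 2-fold lower (9.82%). A change of at least 16-fold was called for 490 rises and 76 falls. In 13083 genes (59.1%) every library of one stage lay above every library of the other, with E16.5 above in 29.2% of genes and E14.5 above in 29.8%. At an unadjusted p under 0.05 the share was 54.0%. The lists with the highest medians held skeletal muscle, nasal gland and fat genes, followed by bone, osteoclast and keratin genes. Those with the lowest medians held Y-linked, Hox and brain genes, followed by transcription factors of the shelves.

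**Figure D1:**
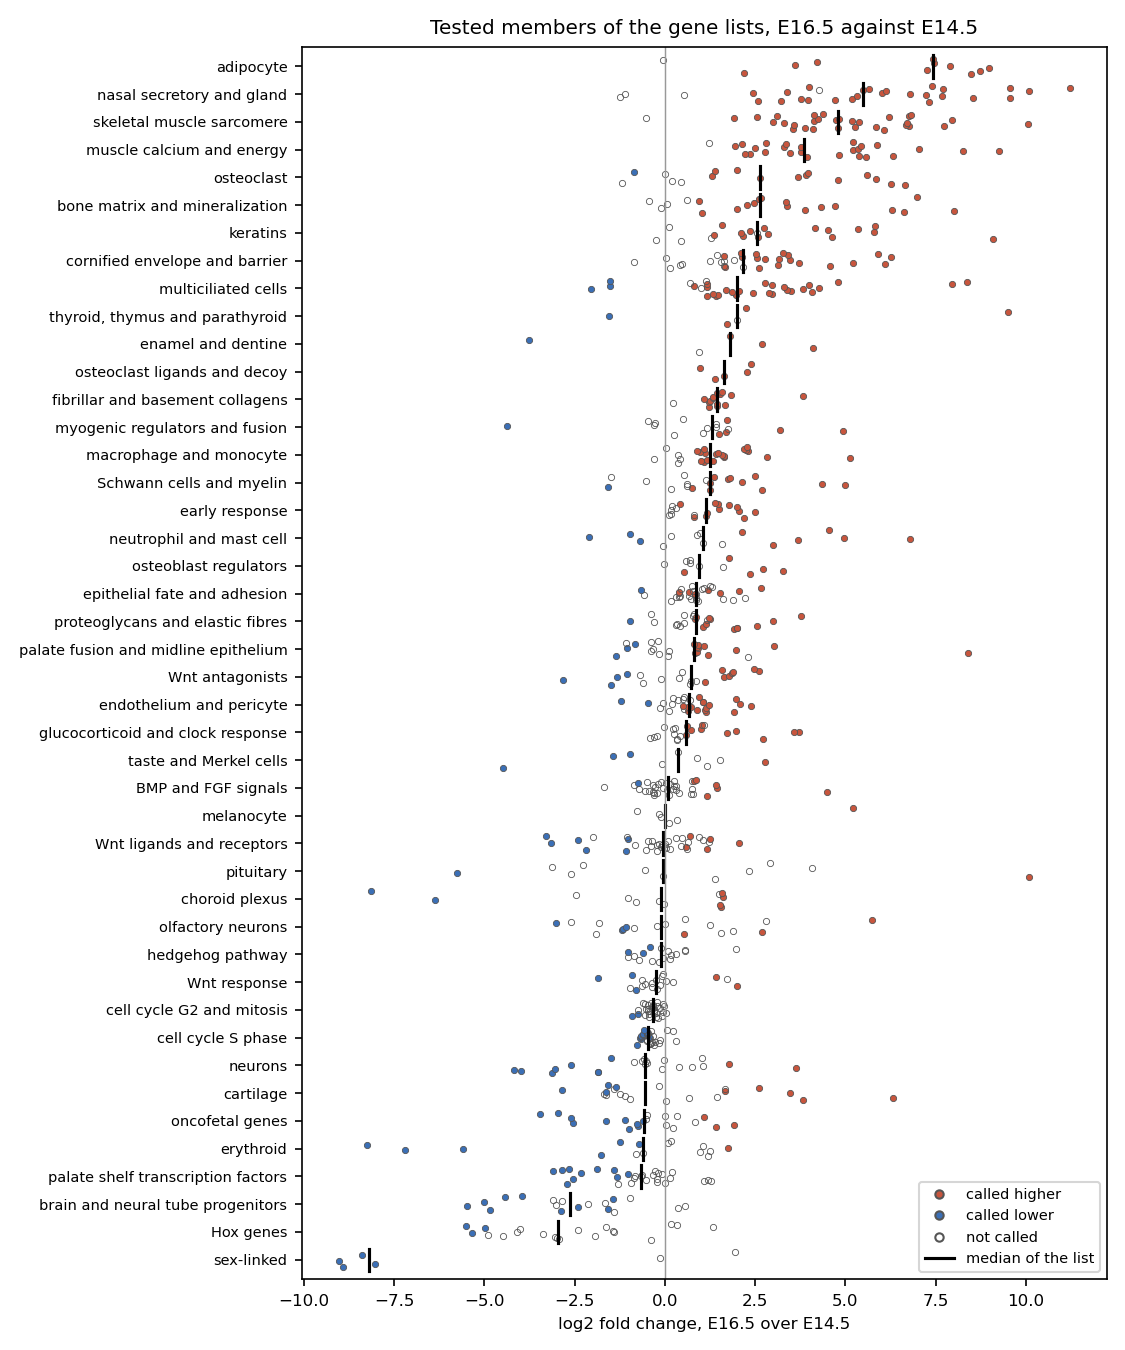
Log2 fold change of E16.5 over E14.5 for every tested member of the 44 gene lists, 1 row per list, ordered by the list's median (black bar). Filled points passed an adjusted p of 0.05 (red higher, blue lower), and the muscle, bone matrix and osteoclast rows lie almost wholly right of 0, while the brain, Hox and Y-linked rows lie mostly left of it.

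Depth was 65529889 to 69019565 counted fragments in the E14.5 libraries and 37109472 to 52258321 in those of E16.5. Genes that mark the palatal mesenchyme were present in all 6 libraries, with Pax9 at 23.8 to 51.2 CPM, Osr2 at 20.4 to 48.7 CPM and Meox2 at 11.5 to 30.7 CPM. Some libraries also held genes of tissues next to the palate. Among E14.5 libraries, Ttr, the transthyretin made by the choroid plexus of the brain, was at 1224, 8.64 and 673 CPM, and Hoxa5, a gene of the hindbrain, neck and trunk, was at 102, 18.9 and 1.29 CPM. The choroid plexus list did not move as 1 group. Of its 12 genes 4 were called higher and 2 lower (50%, against 46.2% of all tested genes), with a median of -0.10. Ttr fell by 8.13 on the log2 scale, while Calml4 and Aqp1 rose by 1.53 and 1.56. The first E16.5 library held thyroglobulin (Tg) at 4058 CPM against 3.403 and 4.55 in the others, growth hormone (Gh) at 1204 CPM against 19.01 and 5.75, and the brown fat gene Ucp1 at 200 CPM against 1.08 and 1.66. Of 11 pituitary genes Gh alone was called higher (10.08) and Lhx4 alone lower (-5.76), with a median of -0.05. In the first E16.5 library 69 genes were at 10 CPM or more and at least 10 times both other E16.5 libraries, and 47 of these were called. Without the first library of each stage, a choice made after these values were seen, 2914 genes were called higher and 2014 lower (21.6% of 22790 in all), of which 2866 and 1939 had been called the same way with all libraries. Without the first, the second or the third E14.5 library the share called was 32.6%, 35.1% or 41.7%, and without the first, the second or the third of E16.5 it was 32.4%, 41.2% or 42.2%.

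The E16.5 libraries also differed from the E14.5 libraries in sex. The Y-linked gene Ddx3y was at 43.2, 25.4 and 53.1 CPM at E14.5 and at 0.0647, 0.0277 and 0.0489 CPM at E16.5. Xist, which is expressed from the inactive X chromosome of females, was at 1.67, 407 and 1.54 CPM at E14.5 and at 269, 674 and 634 CPM at E16.5. The E16.5 values of Ddx3y were at or under the floor of 3 counts, and among the Y-linked genes of the list the highest E16.5 value was 0.166 CPM, for Eif2s3y in the second library, where the floor was 0.0830 CPM. Kdm5d, Uty and Eif2s3y, the other Y-linked genes of the list, fell with it. Without the first E16.5 library Uty (adjusted p = 0.0588) and Eif2s3y (adjusted p = 0.0704) were not called, and none of the 4 was without the first library of both stages. Eif2s3y was also not called without the third E16.5 library. Stage and sex cannot be told apart for any single gene in this comparison.

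**Figure D2:**
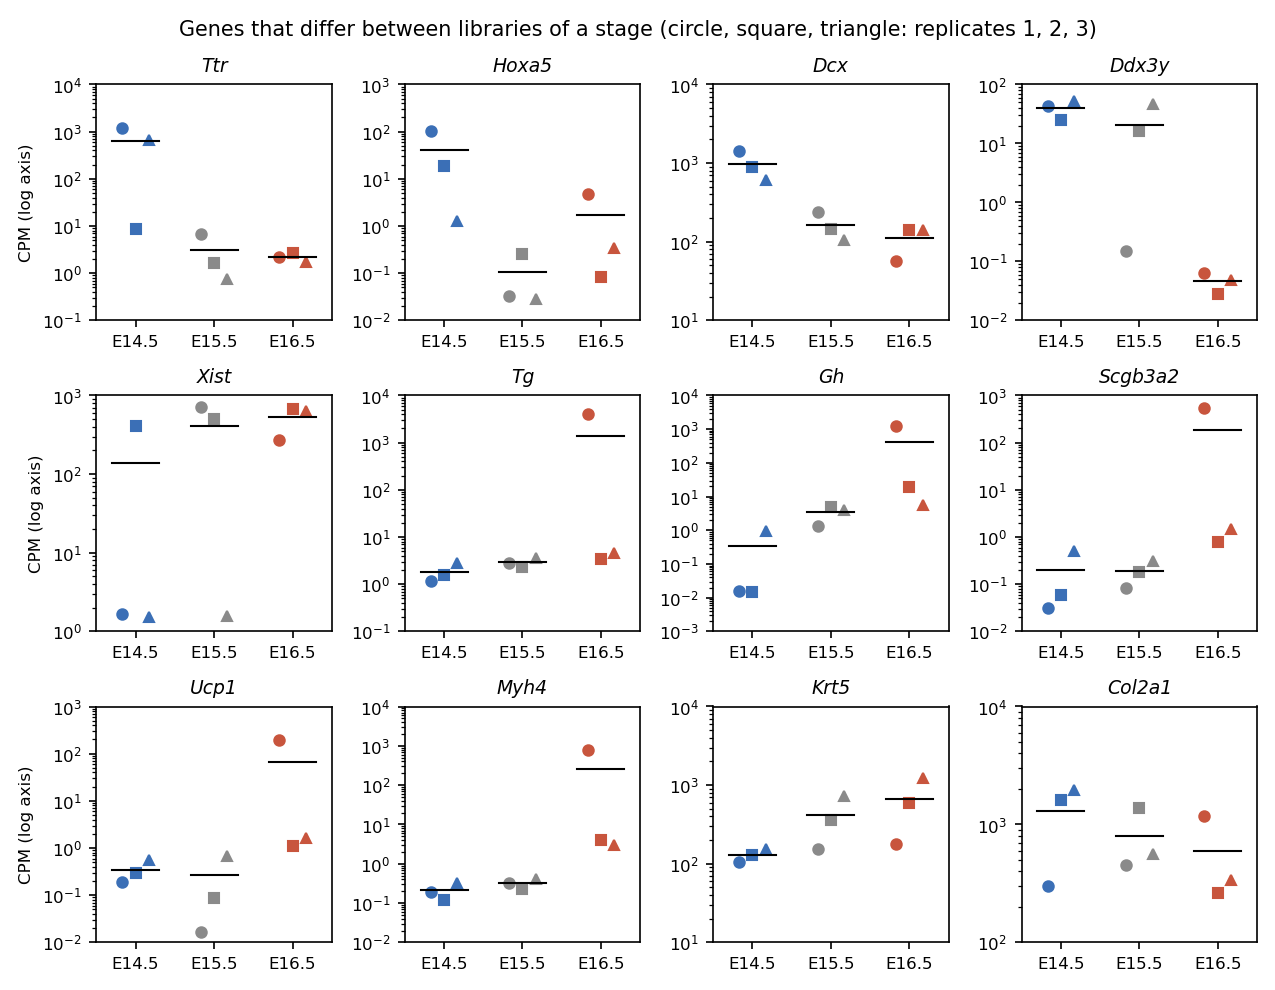
CPM on a log axis for 12 genes in each library of E14.5, E15.5 and E16.5, with the mean of the stage as a bar. Ttr stands high in the first and the third E14.5 library and Hoxa5 in the first, Tg, Gh, Scgb3a2, Ucp1 and Myh4 stand high in the first E16.5 library, and Ddx3y is near 0 in all 3 E16.5 libraries.

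Genes of bone matrix and its mineral rose together. Of 20 tested members 16 were called higher and 0 lower, with a median of 2.63, and all 16 stayed called whichever of the 6 libraries was omitted. Osteopontin (Spp1), a phosphoprotein that bone cells and osteoclasts secrete, was at 5.67, 11.8 and 8.99 CPM at E14.5 and at 1338, 751 and 1251 CPM at E16.5. Its 3 E16.5 libraries all lay above the 3 of E14.5, and the log2 fold change was 6.97 (SE 0.59, adjusted p = 2.06e-05). Dmp1, a matrix protein of osteocytes, the cells buried in bone, went from 1.03, 0.999 and 0.941 CPM to 65.8, 51.6 and 123 CPM. The groups did not overlap and the log2 fold change was 6.29 (SE 0.42, adjusted p = 1.56e-05).

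Osteocalcin, the late osteoblast protein, is encoded in the mouse by near-identical neighbouring genes, whose counts may be split between them. Bglap2 had no count in any E14.5 library and was at 11.8, 5.20 and 11.2 CPM at E16.5. Against the floor of 3 counts per library this was at least 211-fold higher. Bglap rose by 6.61 and Bglap3 by 3.87 on the log2 scale. Further rises were 4.71 for Mepe, 4.32 for the bone sialoprotein Ibsp, 3.34 for Phospho1, which frees phosphate for mineral, and 2.46 for Phex, a membrane protease that controls phosphate. Smpd3 (0.62), Pdpn (0.06), Fgf23 (-0.10) and Slc20a1 (-0.44) were not called.

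Sclerostin (Sost), a Wnt inhibitor secreted by osteocytes, was low but separated the stages. It was at 0.685, 0.560 and 0.576 CPM at E14.5 and at 4.34, 3.54 and 3.72 CPM at E16.5. The 3 libraries of each stage lay close together, and the log2 fold change was 2.60 (SE 0.36, adjusted p = 0.000241).

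The osteoblast list held the type I collagen chains and Alpl beside regulators of fate. Its median was below that of the bone matrix list. Of 11 members 5 were called higher and 0 lower, with a median of 0.94. The chains of type I collagen were the largest: Col1a1 went from 850, 1687 and 1975 CPM to 14150, 12569 and 17067 CPM, a log2 fold change of 3.28 (SE 0.35, adjusted p = 6.09e-05), and Col1a2 rose by 2.72. In both genes the first E14.5 library was the lowest. Alpl, the phosphatase that clears a mineral inhibitor, rose by 2.36, and Sp7, the osteoblast factor osterix, by 1.79. Runx2, the factor that commits cells to the osteoblast lineage, was at 25.0, 36.9 and 38.4 CPM and then at 23.1, 45.3 and 81.8 CPM. Its groups overlapped and its log2 fold change of 0.58 was not called (adjusted p = 0.235). Without the first E16.5 library 8 of the 11 members were called higher.

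Osteoclasts, the cells that resorb bone, were represented by 17 tested genes, of which 12 were called higher and 1 lower, with a median of 2.65. Ctsk, the protease that digests bone collagen, was at 13.5, 22.3 and 35.1 CPM at E14.5 and at 569, 505 and 917 CPM at E16.5. All E16.5 libraries were higher, by 4.81 on the log2 scale (SE 0.44, adjusted p = 2.73e-05). Acp5, the tartrate-resistant acid phosphatase, rose by 6.65, the proton pump subunit Atp6v0d2 by 6.26 and the fusion proteins Dcstamp and Ocstamp by 5.84 and 5.60. The vitronectin receptor subunit Itgb3 rose by 2.65. The other members were Clcn7 (0.20), Ostm1 (0.01), Car2 (0.45) and the calcitonin receptor Calcr (-1.19, adjusted p = 0.117), which were not called, and the kinase Src, which fell by 0.86.

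The signals that control osteoclasts rose with them, all 5 of 5 tested genes. Csf1, the survival factor of the lineage, went from 16.7, 21.4 and 23.3 CPM to 47.3, 49.7 and 63.0 CPM, and its receptor Csf1r, which macrophages share, from 30.6, 33.8 and 34.6 CPM to 103, 84.8 and 123 CPM. Neither gene's groups overlapped, and the log2 fold changes were 1.38 and 1.65. Tnfsf11, the RANK ligand that drives osteoclast formation, rose by 2.39 (SE 0.36), from a mean of 0.743 CPM to 4.06 CPM. Tnfrsf11b, the osteoprotegerin decoy that blocks it, rose by 0.98.

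Mmp13, the collagenase of hypertrophic cartilage and forming bone and also a gene of the fusing midline epithelium, had one of the largest rises of any list. It was at 0.467, 0.621 and 0.323 CPM at E14.5 and at 150, 116 and 241 CPM at E16.5, with no overlap, a log2 fold change of 8.39 (SE 0.88, adjusted p = 6.10e-05). Its promoter is shown because it holds both letters known from collagenase and bone genes. The 250 bases before the RefSeq start site (GRCm38.p6, chr9:7272264-7272513, plus strand) are written 5′ to 3′ with capitals for the RUNX core ACCACA and the AP-1 site TGANTCA.
Mmp13: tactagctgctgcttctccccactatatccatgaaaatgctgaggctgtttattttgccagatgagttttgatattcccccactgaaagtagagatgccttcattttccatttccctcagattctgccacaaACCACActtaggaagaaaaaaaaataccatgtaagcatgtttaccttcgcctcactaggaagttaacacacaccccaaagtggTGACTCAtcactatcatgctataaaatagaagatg
The match to the RUNX core began at base -118 and the AP-1 site at base -35 from the start. Searched on both strands of the 250 bases before the start, the RUNX core was in 4614 of all 32851 promoters and the AP-1 site in 6.75%. Among genes called at least 2-fold higher the AP-1 site was in 9.59% of promoters, and among those at least 2-fold lower in 3.47%. A match is a run of letters and no evidence of binding.

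Cartilage genes did not move as 1 group. Of 20 members 5 were called higher and 4 lower, with a median of -0.56. The share called, 45%, was near the 46.2% of all tested genes. The rises included Col10a1, the collagen of hypertrophic cartilage, which went from 0.249, 0.197 and 0.309 CPM to 41.1, 8.41 and 19.6 CPM (log2 fold change 6.32, SE 0.74), Chad (3.81), Comp (3.47) and the hedgehog ligand Ihh (1.66). The falls included Sox9, the main cartilage regulator, by 1.57, Sox5 by 1.37, the link protein Hapln1 by 1.64 and Matn1 by 2.85. The count of falls was 2 without the second or the third E14.5 library or the second of E16.5. Matn1 was not called in those fits or without the third E16.5 library (adjusted p = 0.0868 to 0.155), and Hapln1 not without the second or the third E14.5 library or the first or the second of E16.5 (adjusted p = 0.0719 to 0.143). Sox5 was not called without the first E16.5 library (adjusted p = 0.0532). Col2a1, the main cartilage collagen, was at 300.2, 1616 and 1952 CPM and then at 1186, 264 and 338 CPM. Its groups overlapped because the first library of each stage stood apart from the others, and it was not called (-1.11, adjusted p = 0.260). Without those 2 libraries 3 cartilage genes were called higher and 8 lower, Col2a1 among the latter (-2.53).

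Collagens of connective tissue and basement membranes rose in 14 of 15 cases, with a median of 1.45. Col5a3 rose most, by 3.83, and the type VI chains Col6a1, Col6a2 and Col6a3 rose by 1.84, 1.53 and 1.45. Col18a1 was not called (0.23). Without the first E14.5 library, the third of E16.5 or the first of both stages, 11 of these collagens were called higher. Of 23 proteoglycan and elastic fibre genes, 12 were called higher and 1 lower, with a median of 0.85. The count of rises was 8 without the first or the second E14.5 library or the first library of both stages. Fibromodulin (Fmod), which binds collagen fibrils, went from 12.4, 16.997 and 21.9 CPM to 173, 116 and 121 CPM, and its groups did not overlap (log2 fold change 3.00, SE 0.36). Biglycan (Bgn) rose by 2.00 and elastin (Eln) by 2.54, or by 1.70 without the first libraries of both stages. Has2, which makes the hyaluronan that fills the shelves, fell by 0.96.

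**Figure D3:**
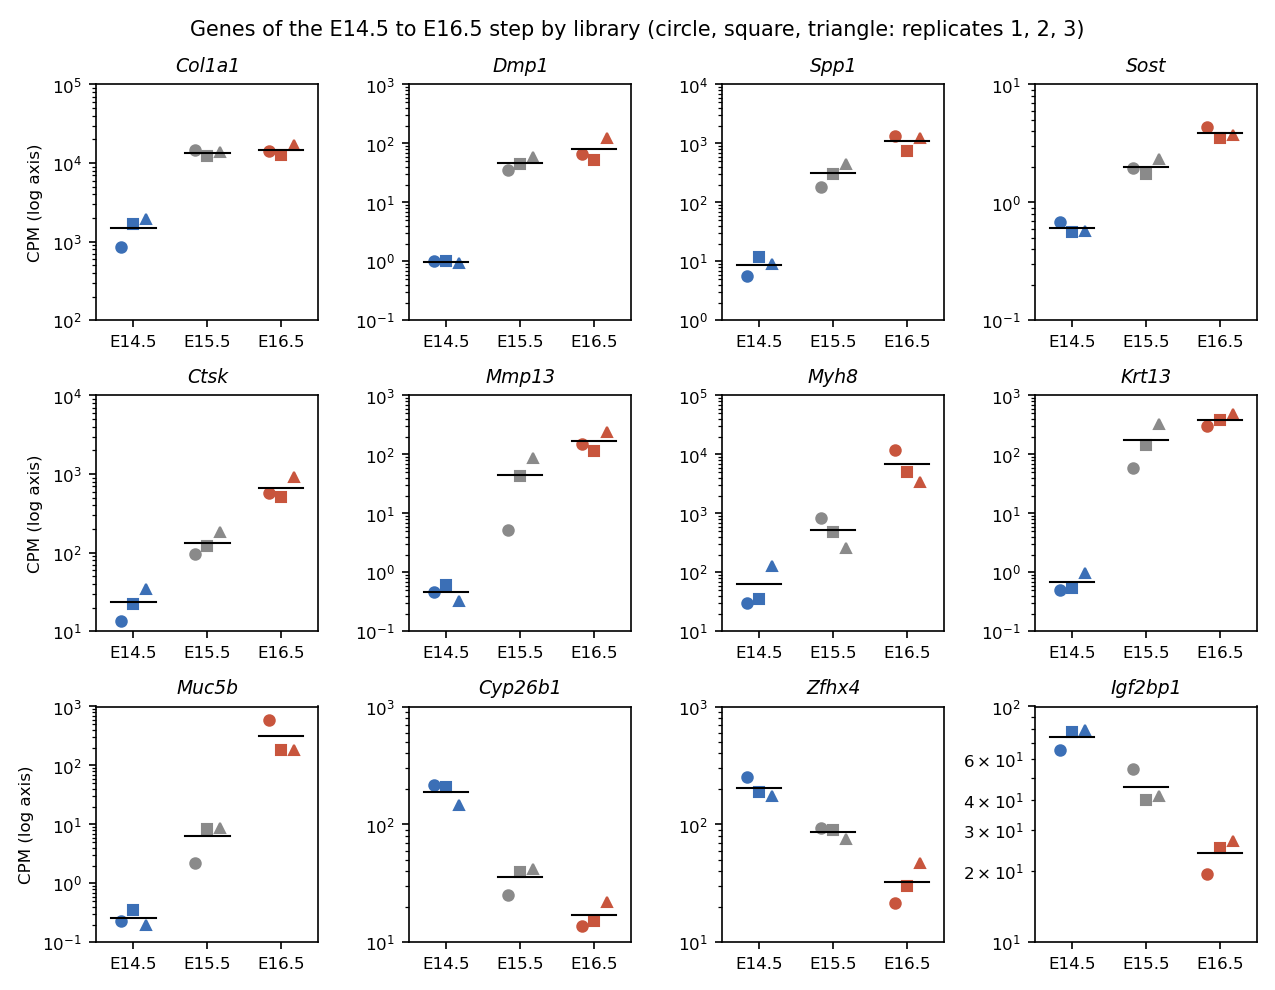
CPM on a log axis for 12 genes in each library of E14.5, E15.5 and E16.5, with the mean of the stage as a bar. The 3 libraries of E16.5 lie above those of E14.5 for the first 9 genes and below them for Cyp26b1, Zfhx4 and Igf2bp1, and Col1a1 was at E15.5 already near its E16.5 level.

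Skeletal muscle gave the broadest rise. Of 31 sarcomere genes 30 were called higher and 0 lower, with a median of 4.80, and of 26 genes of muscle calcium handling and energy 25 were called higher and 0 lower, with a median of 3.86. Myh8, the perinatal myosin heavy chain, was at 29.9, 36.1 and 127 CPM at E14.5 and at 11989, 4983 and 3436 CPM at E16.5. The first E16.5 library was the highest and the third E14.5 library the nearest to it from below, but the groups stayed far apart (log2 fold change 6.72, SE 0.95, adjusted p = 0.000259). The embryonic myosin Myh3 rose by 3.59, the slow myosin Myh7 by 3.29 and Myoz1, a protein of fast fibres, by 7.96. Nebl, which is mainly a heart gene, was not called (-0.52).

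Myh4, the fast myosin of adult muscle, was at 782, 3.93 and 2.94 CPM at E16.5 against 0.187, 0.121 and 0.323 CPM at E14.5. Its log2 fold change of 10.05 fell to 3.76 and lost its call (adjusted p = 0.0786) without the first library of each stage. The same omission left 27 sarcomere genes and 21 calcium and energy genes called higher, with medians of 3.89 and 3.15.

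Ckmt2, the mitochondrial creatine kinase of striated muscle, rose most among the energy genes. It was at 0.109, 0.121 and 0.253 CPM at E14.5 and at 257, 57.1 and 53.2 CPM at E16.5 (log2 fold change 9.26, SE 0.94, adjusted p = 5.13e-05). The glycolytic enzymes Eno3 and Pygm rose by 5.36 and 5.88. The promoter of Ckmt2 is shown as an example of the E-box CAGCTG, letters that muscle regulatory factors bind. These are the 250 bases before its start (RefSeq, GRCm38.p6, chr13:91876886-91877135, minus strand), with the E-box in capitals.
Ckmt2: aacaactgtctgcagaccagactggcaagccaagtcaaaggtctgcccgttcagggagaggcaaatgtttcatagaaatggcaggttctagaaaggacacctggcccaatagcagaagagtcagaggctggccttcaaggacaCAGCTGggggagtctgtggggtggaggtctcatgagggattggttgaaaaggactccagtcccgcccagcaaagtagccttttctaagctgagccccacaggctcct
The E-box began at base -107. It was in 16 of 21 promoters of the calcium and energy genes (76.2%) and in 32.3% of those of the sarcomere genes, against 4271 of all 32851 promoters and 16.5% of those of genes called at least 2-fold higher.

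The regulators of muscle fate changed in fewer cases than the proteins of the fibre. Of 16 members 5 were called higher and 1 lower, with a median of 1.31. Myf6, the regulator of late differentiation, rose by 4.94 and Mymk, which lets myoblasts fuse, by 3.19. Myod1 (1.18, adjusted p = 0.126) and Myog (1.43, adjusted p = 0.0727), which start differentiation, were not called, nor was the satellite cell factor Pax7 (-0.30). Pax3, of muscle progenitors and also of neural crest and neural tube, was at 29.3, 20.3 and 18.1 CPM and then at 0.950, 1.69 and 0.514 CPM, a fall of 4.38 on the log2 scale (SE 0.93). Without the third E14.5 library 9 members were called higher, and without the first 3.

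Keratins, the intermediate filaments of epithelia, rose in 15 of 20 cases with a median of 2.56, and none fell. Krt13, of the suprabasal layers of the oral lining, went from 0.498, 0.545 and 0.997 CPM to 305, 382 and 483 CPM, with a log2 fold change of 9.08 (SE 0.90, adjusted p = 4.22e-05). Krt6a, a keratin of stressed and growing epithelium with a near-identical neighbour in Krt6b, rose by 4.51 and Krt78 by 5.82. Krt14 of the basal layer was not called (1.27, adjusted p = 0.167), and its partner Krt5 was at 106, 128 and 156 CPM and then at 177, 599.6 and 1217 CPM. Krt5 was called (2.36, adjusted p = 0.0320) but not without the third E16.5 library (1.57, adjusted p = 0.140), without any single E14.5 library (adjusted p = 0.0628 to 0.101) or without the first library of each stage (adjusted p = 0.0656). The keratins of cornified skin, Krt1 (0.45) and Krt10 (-0.25), were not called. Without the first E14.5 library 9 keratins were called.

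Genes of the cornified envelope and barrier rose in 19 of 31 cases, with a median of 2.16. Dmkn, a secreted protein of upper epithelial layers, went from 0.826, 0.893 and 1.1235 CPM to 40.3, 30.3 and 38.1 CPM (log2 fold change 5.20, SE 0.63). Calml3, a calcium sensor of epithelium, rose by 4.58, and corneodesmosin (Cdsn), which holds cornified cells together, by 3.13. Loricrin (Lor), the main envelope protein of the epidermis, was not called (0.04). The AP-1 site TGANTCA was in 16 of 39 promoters of this list (41.0%, some genes having more than 1), against 6.75% of all. Without the first E14.5 library 12 of its genes were called, and 11 without the first library of both stages.

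The genes that define and join epithelial cells moved less. Of 30 members 8 were called higher and 1 lower, with a median of 0.85, although 18 lay higher in all E16.5 libraries. The integrins of the hemidesmosome, which anchors the basal layer, were called: Itgb4 rose by 1.52 (SE 0.28) and Itga6 by 0.84 (SE 0.17), and Lamb3, a chain of their laminin, by 2.04 (SE 0.38). Trp63, a regulator of stratified epithelium, was not called (0.77, adjusted p = 0.338). Each left-out library except the first of E16.5 reduced the count of called rises to 4 or 5.

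Of 23 genes of midline epithelium and fusion, 11 were called higher and 3 lower, with a median of 0.81. Besides Mmp13 they included the protease inhibitor Timp1, up by 3.02, and Tgfb1, up by 1.96. Tgfb3, the ligand that the midline epithelium needs to fuse, was at 34.5, 71.4 and 95.0 CPM and then at 134, 117 and 129 CPM. Its rise of 0.92 (adjusted p = 0.0297) was not called without the first E14.5 library (0.60, adjusted p = 0.0905), without the second (0.96, adjusted p = 0.0636), or without the first or the third of E16.5 (0.92 and 0.90, adjusted p = 0.0715 and 0.0615). The receptor Tgfbr1 fell by 1.06 and N-cadherin (Cdh2) by 1.35. Snai1 (0.13), Snai2 (-0.39), Zeb1 (-0.37) and Zeb2 (-0.20), factors of epithelial to mesenchymal transition, were not called. Without the first library of both stages 4 genes of this list were called higher.

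Genes of nasal glands and secretory cells held some of the highest folds. Of 29 members 25 were called higher and 0 lower, with a median of 5.48. The gel-forming mucin Muc5b was at 0.234, 0.348 and 0.197 CPM at E14.5 and at 599, 183 and 180 CPM at E16.5, with no overlap (log2 fold change 10.09, SE 0.96, adjusted p = 3.34e-05). Agr2, which folds mucins, rose by 7.32, Muc5ac, the mucin of goblet cells, by 6.12, and lactoferrin (Ltf), an antimicrobial protein of secretions, by 6.79. Bpifb9b, a secreted protein of nasal glands with a near-identical neighbour in Bpifb9a, was at 1.51, 24.7 and 252 CPM at E16.5, so the third library led there.

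Scgb3a1 and Scgb3a2, secretoglobins of the airways, differed in another way. At E16.5 they were at 476, 0.498 and 0.783 CPM and at 542, 0.775 and 1.52 CPM. The first library held nearly all of both. Their log2 fold changes of 11.23 and 9.56 fell to 3.25 and 1.92 without the first library of each stage, and neither was then called (adjusted p = 0.0857 and 0.210). Without only the first E16.5 library Scgb3a2 was at 2.36 (adjusted p = 0.0878). Of the glandular list 19 members were called higher without both first libraries, with a median of 4.55. AU040972, an antisense RNA gene on chromosome 11 (79481719 to 79484031), was among the 10 largest rises. It went from 0.0623, 0.0605 and 0.126 CPM to 127, 67.0 and 66.4 CPM (log2 fold change 9.49, SE 0.74).

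Multiciliated cells line the nasal floor. Of 32 genes 26 were called higher and 3 lower, with a median of 2.01. The axonemal genes rose most: Tmem212 went from 0.0935, 0.0454 and 0 CPM to 34.8, 25.6 and 21.2 CPM (log2 fold change 8.38, SE 0.74), Sntn was at least 283-fold higher, and the dynein intermediate chain Dnaic2 rose by 3.39. Foxj1, the factor that switches on motile cilia genes, rose by 1.69. The falls were Tuba1a (-1.52), Rfx3 (-1.51) and Gmnc (-2.03), of which Tuba1a is also a major tubulin of neurons. Without the first library of either stage alone 1 of the 3 was called. None was called without the first library of each stage, while 23 rises were.

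The axonemal dynein Dnah5 went from 4.03, 2.29 and 2.40 CPM to 38.1, 56.0 and 53.5 CPM (log2 fold change 4.06, SE 0.52). Its promoter is shown because it carries GTTNCCATG, only a part of the X-box, the longer run of letters that RFX factors bind at cilia genes. In the 250 bases before the start (RefSeq, GRCm38.p6, chr15:28203516-28203765, plus strand) the capitals mark this part, which lies on the other strand.
Dnah5: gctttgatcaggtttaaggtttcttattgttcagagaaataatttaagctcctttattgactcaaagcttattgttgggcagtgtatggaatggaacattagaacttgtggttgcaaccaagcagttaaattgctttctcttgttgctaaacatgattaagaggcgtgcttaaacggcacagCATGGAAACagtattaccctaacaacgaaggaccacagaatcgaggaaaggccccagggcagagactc
The match began at base -68. It was in 4 of 38 promoters of the multiciliated list (10.5%) and in 1.56% of all promoters.

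Red blood cell genes showed a switch of globins. Of 15 erythroid genes 1 was called higher and 6 lower, with a median of -0.61. The embryonic globins are made by the first red cells of the yolk sac, and the adult globins by cells of the fetal liver. Hbb-y, an embryonic beta globin, was at 355, 459 and 658 CPM at E14.5 and at 1.68, 2.71 and 0.391 CPM at E16.5, a fall of 8.24 on the log2 scale (SE 0.75, adjusted p = 2.73e-05). Hba-x, the embryonic alpha globin, went from 45.4, 54.1 and 76.5 CPM to 0.324, 0.443 and 0.343 CPM and fell by 7.18 (SE 0.58). Hbb-bh1, of the same early cells, fell by 5.59 (SE 0.43). For each of these the lowest E14.5 library was far above the highest E16.5 library.

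No adult globin was called lower. Hbb-bs was at 183, 206 and 359 CPM at E14.5 and at 1228, 507 and 794 CPM at E16.5, and was called higher (1.76, adjusted p = 0.0284). It lost that call without the first E14.5 library (1.57, adjusted p = 0.101), the second (1.63, adjusted p = 0.0904), the first E16.5 library (1.43, adjusted p = 0.106) or both first libraries (1.24, adjusted p = 0.248). Hba-a1 went from 145, 162 and 275 CPM to 574, 232 and 348 CPM, with overlap, and was not called (0.99, adjusted p = 0.0942). Hbb-bt (1.06) and Hba-a2 (1.26) were not called either, and each shares reads with its near-identical partner. Per kilobase of exon, Hbb-y stood at 775 CPM at E14.5 above Hbb-bs at 325, and at E16.5 the order was reversed, at 2.52 and 1098 CPM. Klf1, a regulator that red cells of both origins use, fell by 0.71, and Alas2, the first enzyme of their haem synthesis, was not called (adjusted p = 0.0576).

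The promoters of the embryonic and adult members of both pairs are set side by side, since they moved apart while sharing the classic letters of globin genes. Each is the 250 bases before the start from RefSeq on GRCm38.p6: Hbb-y (chr7:103853208-103853457, minus strand), Hbb-bs (chr7:103827929-103828178, minus strand), Hba-x (chr11:32276350-32276599, plus strand) and Hba-a1 (chr11:32283422-32283671, plus strand). The capitals mark the CACCC box, the CCAAT box and the TATA-type run ATANAA.
Hbb-y: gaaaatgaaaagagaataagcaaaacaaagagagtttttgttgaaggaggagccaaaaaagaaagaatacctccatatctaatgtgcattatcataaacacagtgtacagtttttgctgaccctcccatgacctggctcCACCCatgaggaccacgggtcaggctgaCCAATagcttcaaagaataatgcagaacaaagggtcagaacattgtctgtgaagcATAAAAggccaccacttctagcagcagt
Hbb-bs: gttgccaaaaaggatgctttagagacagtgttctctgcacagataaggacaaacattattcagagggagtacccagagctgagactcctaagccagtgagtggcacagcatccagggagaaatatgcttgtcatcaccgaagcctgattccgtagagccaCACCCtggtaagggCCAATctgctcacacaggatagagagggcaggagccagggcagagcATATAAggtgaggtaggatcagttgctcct
Hba-x: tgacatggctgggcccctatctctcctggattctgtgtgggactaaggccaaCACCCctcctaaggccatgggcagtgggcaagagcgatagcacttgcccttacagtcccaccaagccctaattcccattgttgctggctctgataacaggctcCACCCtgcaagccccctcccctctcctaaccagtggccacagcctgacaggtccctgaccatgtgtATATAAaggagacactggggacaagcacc
Hba-a1: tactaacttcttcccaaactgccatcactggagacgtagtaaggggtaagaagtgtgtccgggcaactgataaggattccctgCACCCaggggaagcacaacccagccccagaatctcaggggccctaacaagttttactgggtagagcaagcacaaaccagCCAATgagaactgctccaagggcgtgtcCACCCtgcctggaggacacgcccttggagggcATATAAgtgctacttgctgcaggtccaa
The TATA-type run began at base -28 in Hbb-y, -30 in Hbb-bs, -29 in Hba-x and -28 in Hba-a1. The nearest CACCC began at base -111, -90, -95 and -60 in the same order. CCAAT began at base -83 in Hbb-y, -76 in Hbb-bs and -88 in Hba-a1, and these letters were not found in the window of Hba-x. CACCC was in 11 of 12 promoters of the erythroid list (91.7%) against 52.0% of all, and CCAAT in 58.3% against 33.8%. All 4 globin promoters shown held CACCC and the TATA-type run.

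**Figure D4:**
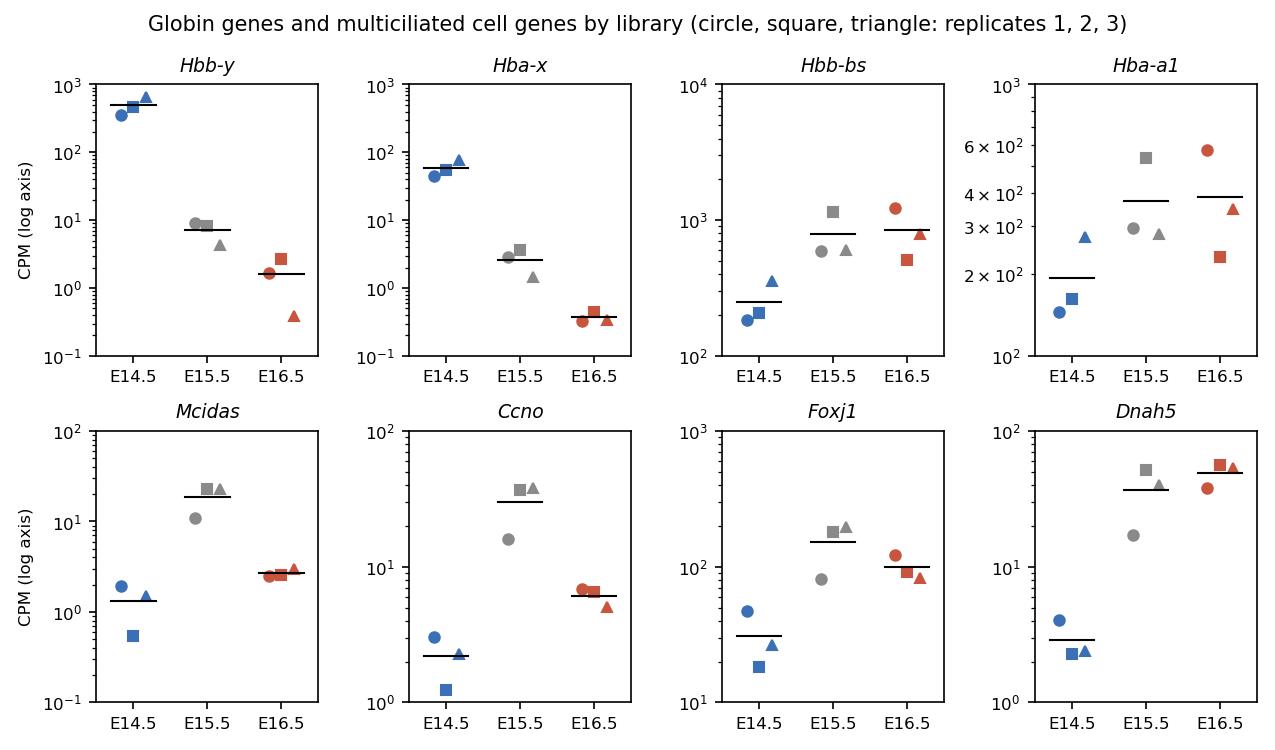
CPM on a log axis for 4 globin genes (upper row) and 4 genes of multiciliated cells (lower row) in each library of E14.5, E15.5 and E16.5, with the mean of the stage as a bar. Hbb-y and Hba-x were lower at each later stage while Hbb-bs and Hba-a1 were not, and Mcidas and Ccno were higher at E15.5 than in every library of the other stages.

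Macrophage genes rose in 19 of 24 cases, with a median of 1.25, and none fell. Cd163, a scavenger receptor of mature tissue macrophages, went from 0.0779, 0.0908 and 0.154 CPM to 7.12, 3.49 and 4.5998 CPM (log2 fold change 5.14, SE 0.46). Cd68, a lysosomal protein that osteoclasts also make, rose by 2.84, and Tyrobp, an adaptor of both cell types, by 2.29. Cx3cr1 (0.37), Adgre1 (0.36) and Trem2 (0.03) were not called. Of 15 neutrophil and mast cell genes 6 were called higher and 3 lower, with a median of 1.07. The rises included Ltf (6.79), named above as a protein of secretions, and Lcn2 (3.68). Without the first library of each stage 4 of the list were called higher and 1 lower, with a median of -0.06. The mast cell proteases Mcpt4 and Tpsb2 rose by 4.97 and 4.54, and Mpo, of immature neutrophils, fell by 2.10. The count of falls was 1 without the first or the second E14.5 library or the first or the third of E16.5.

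Vessel genes rose moderately, 16 of 28 with 2 falls and a median of 0.67. Higd1b, a pericyte gene, was at 0.358, 0.378 and 0.393 CPM and then at 3.24, 1.52 and 1.57 CPM (log2 fold change 2.38, SE 0.34), and the smooth muscle gene Tagln rose by 1.98. Kdr, the main receptor of endothelial growth, was not called (0.20). The 2 falls became 0 without the first E16.5 library and 1 without any other. Without the first library of both stages 6 of these genes were called higher. Schwann cell and myelin genes rose in 11 of 19 cases, with a median of 1.24. Mal, a myelin protein also found in other epithelia, rose by 4.36 and Pmp22, of peripheral myelin, by 1.81. Sox10, the lineage factor of Schwann cells, was not called (0.53, adjusted p = 0.316). Without the first or the second E14.5 library or the second of E16.5, 7 members of that list were called higher.

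Among transcription factors that pattern the shelves some fell. Of 29 members 10 were called lower and 0 higher, with a median of -0.66. Zfhx4 was at 253, 188 and 175 CPM at E14.5 and at 21.7, 29.9 and 46.9 CPM at E16.5, with no overlap (log2 fold change -2.64, SE 0.28, adjusted p = 6.10e-05). Mn1, a cofactor needed for the palate, fell by 1.34 (SE 0.21), from 110, 121 and 106 CPM to 41.8, 44.0 and 47.6 CPM. Shox2, of the anterior palate, fell by 2.32, and Tbx22, a gene of X-linked cleft palate, by 3.09. Pax9, a factor of the posterior and general palatal mesenchyme, was at 31.7, 51.2 and 50.7 CPM and then at 23.8, 46.4 and 36.8 CPM, and it was not called (-0.32, SE 0.39, adjusted p = 0.517). Msx1 (-0.84), Osr2 (-0.63) and Barx1 (0.00) were not called. Without the first E16.5 library 6 members were called lower.

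Cyp26b1, the enzyme that destroys retinoic acid in the palate, was among the 6 largest falls of highly expressed genes. It was at 216, 209 and 145 CPM at E14.5 and at 13.8, 15.3 and 22.1 CPM at E16.5. The log2 fold change was -3.47 (SE 0.26, adjusted p = 1.56e-05), and -3.20 without the first library of each stage.

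Of the hedgehog pathway, which patterns the shelves from the epithelium, 3 of 17 genes were called lower and 0 higher, with a median of -0.10. The share called lower, 17.6%, was below the 22.8% of all tested genes. Gli3, which mainly represses the pathway's targets, was at 67.4, 70.2 and 73.4 CPM and then at 20.1, 31.9 and 51.7 CPM (log2 fold change -1.02, SE 0.27). Gli2, its activator, fell by 0.60 and the inhibitor Sufu by 0.42. The targets Gli1 (0.30) and Ptch1 (0.08) were not called. The ligand Shh was at 6.64, 8.51 and 5.74 CPM and then at 0.777, 12.7 and 69.0 CPM, so that its E16.5 libraries spanned the E14.5 range, and it was not called (1.98, adjusted p = 0.267). Without the first E16.5 library 1 member was called lower, and Gli2 and Sufu were not (adjusted p = 0.165 and 0.114). Gli2 was also not called without the second or the third E14.5 library or the second of E16.5 (adjusted p = 0.0962, 0.0622 and 0.0755). Without the first library of each stage 0 members were called, with Gli3 at an adjusted p of 0.0743.

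Wnt signals drive growth, epithelial fate and bone. Of 36 ligands and receptors 5 were called higher and 6 lower (30.6%, against 46.2% of all tested genes), with a median of -0.04. Wnt9b, a ligand of facial epithelium, went from 2.12, 2.36 and 1.74 CPM to 0.216, 0.194 and 0.122 CPM (log2 fold change -3.30, SE 0.66), Wnt3 fell by 2.41 and the receptor Fzd3 by 2.17. Both Wnt3 and Fzd3 were highest in the first E14.5 library, with Fzd3 at 230, 154 and 124 CPM at that stage. Without the first library of each stage they fell by 1.93 and 1.58. Wnt10a, of teeth and oral epithelium, rose by 2.05 and Wnt4 by 1.26. Without the first E16.5 library 3 members were called higher, and without the third 10 were called lower. Of 20 secreted and membrane inhibitors 8 were called higher and 4 lower, with a median of 0.71. Kremen1, which removes a Wnt co-receptor, was at 57.9, 70.4 and 77.1 CPM and then at 197, 210.3 and 232 CPM (log2 fold change 1.64, SE 0.16). Wif1 rose by 2.46 and Notum, which inactivates Wnt ligands, by 1.78. Draxin, which also guides axons, fell by 2.83. Without the second or the third E14.5 library, or the first or the second of E16.5, 2 inhibitors were called lower.

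Among 19 genes of the Wnt response, 2 were called higher and 3 lower (26.3%, against 46.2% of all tested genes), with a median of -0.24. Lgr6, a receptor of R-spondins, rose by 2.00 and the nuclear factor Tcf7 by 1.42. Tcf7 was not called without the third E16.5 library (0.85, adjusted p = 0.0765). Without the second E16.5 library 1 member was called lower. The feedback target Axin2 fell by 0.81 and was not called without the first E14.5 library (adjusted p = 0.0703) or without the first (adjusted p = 0.107) or second (adjusted p = 0.0588) of E16.5. Of 36 bone morphogenetic protein and fibroblast growth factor genes, 6 were called higher and 1 lower (19.4%, against 46.2% of all tested genes), with a median of 0.08. Bmp8a went from 0.249, 0.182 and 0.211 CPM to 4.42, 4.37 and 8.07 CPM (log2 fold change 4.50, SE 0.37), and the feedback inhibitor Spry1 rose by 0.81. Bmp2 (-0.30), Bmp4 (0.74) and Fgf10 (-0.71) were not called. Without the first E14.5 library 2 members of this list were called higher.

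Genes of DNA replication fell slightly. Of 30 members 11 were called lower (36.7%, against 22.8% of all tested genes) and 0 higher. The median was -0.46, and no member changed 2-fold. Mcm7, a subunit of the replicative helicase, was at 129, 135 and 145 CPM and then at 76.5, 79.2 and 105 CPM (log2 fold change -0.65, SE 0.17). Of 30 genes of mitosis 2 were called lower, Bub1 (-0.92) and Ccnb1 (-0.74), with a median of -0.34. Mki67, the common marker of cycling cells, was at 229, 279 and 297 CPM and then at 213, 256 and 332 CPM, and it was not called (-0.01). None of the 60 genes was called without the first E16.5 library, which was the lowest for Mcm7, Bub1 and Mki67, and 18 and 9 were without the third. The mitosis count was 1 without any single E14.5 library and without the second of E16.5, and Ccnb1 was called in none of these fits (adjusted p = 0.0528 to 0.146). The replication count was 6 and 3 without the second and the third E14.5 library and 5 without the second of E16.5. CCAAT was in 22 of 27 promoters of the mitosis list (81.5%) against 33.8% of all.

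Genes that are high in early embryonic tissue and silenced later fell in 10 of 20 cases, and 3 rose, with a median of -0.57. Igf2bp1, an RNA-binding protein of growing tissue, was at 65.3, 78.0 and 79.9 CPM and then at 19.6, 25.1 and 26.9 CPM, with no overlap (log2 fold change -1.64, SE 0.16, adjusted p = 3.51e-05). Igf2bp3 fell by 1.11, Hmga2, a chromatin protein, by 2.54, Lin28b, which blocks the let-7 microRNAs, by 2.60, and Trim71, a let-7 target, by 2.96. The imprinted RNAs H19 and Meg3 rose by 1.91 and 1.08. Without the first libraries of both stages 9 genes were called lower and 1 higher, and the rises also numbered 1 without only the first E14.5 library or the second of E16.5.

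Early response and stress genes rose in 12 of 18 cases, with a median of 1.15, and none fell. Fos, a subunit of the factor AP-1, went from 2.04, 1.73 and 3.52 CPM to 14.957, 11.9 and 14.7 CPM (log2 fold change 2.49, SE 0.37), Atf3 rose by 2.19 and Ier3 by 2.00. Jun was not called (0.21). Of 21 genes that answer glucocorticoids or belong to the clock, 10 were called higher and 0 lower, with a median of 0.59. Bhlhe40, a repressor within the clock, was at 8.89, 9.58 and 11.04 CPM and then at 66.5, 65.7 and 62.9 CPM (log2 fold change 2.72, SE 0.20, adjusted p = 1.56e-05). Tsc22d3, a target of glucocorticoids, rose by 1.04 and the metal-binding Mt1 by 3.73. Fkbp5 (0.24) and Per2 (0.22) were not called. The labels give no hour of collection.

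Fat genes followed 1 library, while for each brain progenitor gene that fell every E14.5 library lay above every E16.5 library. Of 11 adipocyte genes 10 were called higher, with a median of 7.44, but their summed level at E16.5 was 2655, 210.3 and 177.5 CPM, so the first library led, and 2 were called without the first library of both stages, with a median of 1.37. The count was 4 and 5 without the first and the second E14.5 library and 3 without the first of E16.5. Fabp4, a fatty acid carrier also of vessels, was at 1211, 53.9 and 39.3 CPM. Of 22 neuronal genes 8 were called lower and 2 higher, and of 18 brain progenitor genes 9 lower and 0 higher. The summed neuronal level was 8413, 6163 and 4069 CPM at E14.5 and 2391, 6544 and 2806 CPM at E16.5, so those groups overlapped.

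Dcx, of young neurons, was at 1446, 896 and 618 CPM and then at 56.9, 139 and 142 CPM (log2 fold change -3.13, SE 0.59). Lhx1 (-6.62), Skor1 (-6.47) and Robo3 (-6.38), genes of hindbrain and spinal cord neurons, were among the 10 largest falls, and Nova1 (-4.70), Zic1 (-4.43) and Slc1a2 (-4.06) among the 6 largest of highly expressed genes. All 6 were highest in the first E14.5 library and remained called when any 1 library was left out. Without the first library of both stages 2 neuronal and 3 brain progenitor genes were called lower. The 2 neuronal rises were called neither without the first or the third E14.5 library nor without the second of E16.5, and 1 was without the second of E14.5. Of 20 Hox genes 3 were called lower, and 11 were without the first E16.5 library and 5 without the third of E14.5.

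Of 18 olfactory genes 3 were called higher and 4 lower (38.9%, against 46.2% of all tested genes), with a median of -0.10. Stoml3 and Cnga4 rose by 5.73 and 2.69, while Ebf1 fell by 1.19. Cnga4 was not called without the first library of each stage (adjusted p = 0.0533). Omp, the marker of mature olfactory neurons, was not called (2.81). The falls numbered 1 without the first E14.5 library, 2 without the first of E16.5 and 1 without the third of E16.5. In the enamel list, of 5 tested genes 3 were called higher and 1 lower. Amelx, the amelogenin of tooth enamel, reached 0.863, 0.830 and 0.343 CPM at E16.5 and was at least 15.2-fold higher. The melanocyte gene Tyrp1 rose by 5.21 while the other 5 genes of that list, Tyr and Dct among them, were not called. How much of any tissue next to the palate entered each pool was not tested.

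The E15.5 libraries, which took no part in the contrast, showed where the step fell between its days. Of the genes called at least 2-fold higher, 2186 had at E15.5 passed the midpoint without reaching E16.5 on the log2 scale, 362 lay beyond E16.5, 1102 lay between E14.5 and the midpoint and 69 lay below E14.5. The median position was 63.2% of the step. For the genes called at least 2-fold lower the median was 76.2%, with 470 beyond E16.5, 1287 past the midpoint, 385 before it and 34 above E14.5. The median over the called 2-fold members was 77.9% for bone matrix genes and 88.9% for collagens of connective tissue and basement membranes. It was near the midpoint for osteoclast (55.0%), sarcomere (46.5%) and muscle energy genes (46.9%). The midpoint test given below called 2 of the 20 bone matrix genes. It called 0 genes in each of the collagen, osteoclast, sarcomere and muscle energy lists. Col1a1 had reached 96.9% of its step, Ctsk 52.1% and Myh8 45.1%. Set side by side, 5773 genes (26.1%) were called in E15.5 against E14.5 (12.7% higher, 13.4% lower) and 312 (1.41%) in E16.5 against E15.5 (1.03% higher, 0.379% lower), and these comparisons share libraries with the main one.

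**Figure D5:**
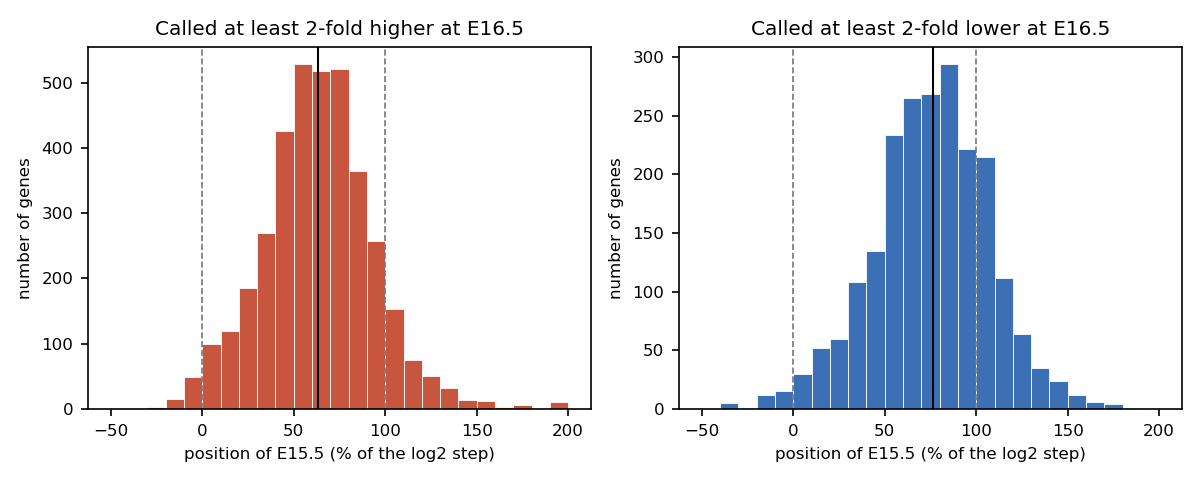
Histograms of the position of E15.5 in percent of the log2 step from E14.5 (0) to E16.5 (100, dashed lines), for genes called at least 2-fold higher (left) or lower (right). The black line is the median, 63.2% and 76.2%, and values beyond the axis were put in its last bin.

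A test of E15.5 against the midpoint of its neighbours called 208 genes (0.939%), 191 with E15.5 above the midpoint (0.862%) and 17 below (0.0767%). Of these, 52 were higher in every E15.5 library than in all 6 libraries of the other stages, and 13 were lower. The multiciliated list held 12 of the 208. Mcidas, a coactivator that starts the multiciliated programme, was at 10.97, 22.9 and 22.6 CPM at E15.5, against 1.95, 0.545 and 1.49 CPM at E14.5 and 2.53, 2.57 and 3.01 CPM at E16.5. Its E15.5 level lay 3.29 above the midpoint on the log2 scale (adjusted p = 0.00689), although E16.5 against E14.5 was not called (1.01, adjusted p = 0.144). Ccno, Deup1 and Cdc20b, which serve the making of many basal bodies, lay 3.03, 3.41 and 3.23 above it. Olig3, of the dorsal hindbrain, lay 2.82 below it. The count was 17 without the second and 16 without the third E15.5 library, and 622 without the first, the library with the lowest Mcidas of that stage.

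P0 against E13.5 shares no library with this comparison, and 12535 genes (56.6%) were called there, 29.8% higher and 26.8% lower. Of the 5187 genes called higher at E16.5, 4626 were also called higher at P0 (89.2% of them and 70.2% of the 6592 called higher there), and 3 were called lower. Of the 5044 called lower, 3891 were also called lower there (77.1% of them and 65.5% of 5943), and 7 were called higher.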

How the data were processed

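Palates were pooled from 3 embryos per library, and RNA was sequenced after an Illumina library preparation, per the labels. The authors deposited raw counts per gene made with featureCounts 2.0.1, counting fragments on the reverse strand with GENCODE M18, per the file headers. The submitters' processing notes name mm10, HISAT2 2.2.1 and cutadapt 3.4, with no role given. Gene positions and symbols were matched to GENCODE M21.

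All 15 libraries were fitted in edgeR 4.0.16 (R 4.3.3), 1 coefficient per stage, after filterByExpr (minimum count 10, 22151 of 54232 genes), with TMM scaling, a prior count of 2 and the quasi-likelihood test. SE was derived from the fold change and F. Positions in the step are on the fitted log2 scale. Level per kilobase is CPM over the summed exon length. Floors are 3 counts, mean 0.0448 CPM at E14.5 and 0.0737 CPM at E16.5, and cover counting error only. Pairs of same-stage libraries differed by 63.9 to 246 in chi-square over its degrees of freedom, so none was a duplicate, and p values measure the spread between pools.

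Members and lists were chosen with earlier results of these data known. Named genes were the 10 largest rises and falls among called, non-overlapping genes at 10 CPM or more, the 6 largest at 100 CPM or more, the 3 smallest adjusted p of each list, Sost and Pax9. Others are list members given for their role, and Hoxa5, Ucp1 and the genes off the midpoint were picked after their values were seen. On simulated data of this comparison over 22151 genes, the test called 20.9% of 67 genes given a 2-fold change, 71.6% of 67 given 4-fold, 92.4% of 66 given 8-fold and 0.00465% of 21510 left unchanged. The simulation changed only 200 genes and held no library that stood apart from its stage. In the real data 46.2% of genes were called, so these rates need not hold there. Alternatives were DESeq2 1.42.0, its size factors, upper-quartile scaling, 2 other filters, the 6 libraries alone, a replicate block and leaving out libraries. Promoters are from RefSeq (GRCm38.p6, 32851 promoters of 27025 genes).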

Additional observations from a re-analysis of the deposited data

Results flagged for a closer look

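For 208 of 22151 genes the first day of the step differed from the second, as the E15.5 level lay off the midpoint of E14.5 and E16.5 in edgeR's quasi-likelihood test of that difference at an adjusted p under 0.05. Of these, 166 were also called higher and 13 lower at E16.5 than at E14.5. Beside the multiciliated genes, Krt13 and Dmp1 were among them, both with E15.5 closer to E16.5 than to E14.5 on the log2 scale. At an unadjusted p under 0.05 the count was 3720.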

How the results depend on the processing

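The counts of genes called higher and lower (5187 and 5044) stayed within 1.5 times under DESeq2, other size factors, upper-quartile scaling, other filters and the 6 libraries alone. Leaving out 1 library gave 3809 to 5071 higher and 3275 to 4828 lower, the lowest of the falls without the first E16.5 library (3275). Without the first library of both stages 2914 were higher and 2014 lower, with 50 genes off the midpoint, and the cause was not tested. The count off the midpoint was 1021 with DESeq2 and 16 to 622 without 1 library. Upper-quartile scaling moved the median of all genes to 0.09. With the replicate number as a block 5145 were called higher, 5244 lower and 256 off the midpoint. Numbers did not pair libraries (deviations of same-numbered libraries correlated at -0.221, 0.0165 and -0.102). Of 2104 alternative values of named genes 2028 kept direction and call, 76 in 31 genes lost the call and 0 reversed. Of 1232 alternative counts of list members 181 moved by over 1.5 times. Depth at E16.5 limits genes near 0.0737 CPM.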

Other observations

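Non-coding genes rose more often than they fell. Of 1183 tested lincRNA genes 298 were called higher (25.2%) and 158 lower (13.4%), and of 914 antisense genes 199 were higher (21.8%) and 98 lower (10.7%). Processed pseudogenes gave 227 higher and 125 lower of 1261. Protein-coding genes were called in nearly equal numbers, 4242 higher (24.9%) and 4357 lower (25.6%) of 17016.

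Of 727 tested X-linked genes 122 were called higher (16.8%) and 225 lower (30.9%), against 23.4% and 22.8% of all tested genes. At E16.5 the Y-linked genes Ddx3y, Uty, Kdm5d and Eif2s3y were at 0.166 CPM or less.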
